A study of Mus musculus with 6 samples.

Results

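Cxcl1, Cxcl2, Cxcl3 and Cxcl5 encode the CXC chemokines that draw neutrophils in the mouse, and their mRNAs were followed here in brain endothelial cells with and without interleukin-36β (IL-36β). They are 4 of the 54532 genes of the deposited expression table. They were chosen by name, with their response to IL-36β in these same libraries already known, so their differences between the groups are given as a description, with no test used in their support. All 4 mRNAs were higher in each of the 3 IL-36β libraries than in any of the 3 untreated libraries. The mean level was 21.7 FPKM untreated and 296 FPKM with IL-36β for Cxcl1, and 16.2 and 133 FPKM for Cxcl2. The scarcer pair stood at 0.223 and 2.55 FPKM for Cxcl3 and at 0.112 and 4.68 FPKM for Cxcl5. FPKM counts the fragments of a gene per kilobase of its length, scaled for the depth of each library.

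The proteins of these genes are small secreted ligands that carry the glutamate-leucine-arginine motif before the paired CXC cysteines and act on neutrophils through the receptor CXCR2. Endothelial cells hold them on heparan sulfate at the vessel wall, where neutrophils that roll along the vessel are stopped and cross into the tissue. Their genes are switched on by NF-κB after signals of the IL-1 family, and the mRNAs are kept short-lived by AU-rich elements that decay proteins recognise. IL-36β belongs to this cytokine family and signals through a receptor whose ligand-binding chain is the product of Il1rl2.

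The libraries came from primary brain microvascular endothelial cells (BMVECs) of wild-type C57BL/6J mice. Vessel fragments of the brain were plated on collagen IV and fibronectin, kept at first in puromycin, which selects for endothelial cells, and then grown to confluence without it. These steps were common to both groups. One group received the processed cytokine, labelled DEVD mIL-36β, at 100 ng/ml for 24 h, and the other was left untreated. The labels name neither a vehicle nor a culture time for the untreated cells; the cytokine and a longer culture therefore cannot be told apart. The libraries are called by their deposited names: untreated replicates 1 to 3 are A0, B0 and D0, and IL-36β replicates 1 to 3 are A24, D24 and E24. Whether replicates stem from different mice or wells is not stated in the labels, and a p-value here rests on the spread of the 6 libraries, which may be technical. Each library held 15180389 to 19544689 reads assigned to genes. In bulk RNA, more cells that express a gene and more RNA per cell cannot be told apart.

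The labelled cell type was checked against its markers. The 12 endothelial markers summed to 2601 to 3113 FPKM untreated and 2650 to 3272 FPKM with IL-36β, and all 12 entered the tested genes. Neutrophil markers, of cells that make and answer these chemokines, summed to at most 0.84 FPKM untreated and 1.42 FPKM with IL-36β; 3 of the 11 were at 0 in all 6 libraries and 10 stayed below 0.5 FPKM. Of 12 myeloid markers, 10 stayed below 0.5 FPKM and C1qa, C1qb and Adgre1 were at 0 throughout, with sums of 7.72 to 8.49 FPKM untreated and 7.31 to 9.52 FPKM with IL-36β, most of it Cd68. Mural cell markers summed to 399 to 1360 FPKM untreated and 357 to 807 FPKM with IL-36β. Most of that sum was the smooth muscle actin gene Acta2, at 378, 675 and 1323 FPKM in A0, B0 and D0 and at 340, 772 and 498 FPKM in A24, D24 and E24, while of the mural markers shared with pericytes Pdgfrb (means of 2.63 untreated and 2.54 FPKM with IL-36β), Des (1.51 and 1.94) and Cspg4 (1.38 and 1.18) were measured at low levels and Rgs5, Kcnj8 and Abcc9 stayed below 0.5 FPKM. Acta2 was highest in D0, the library in which all 4 chemokines were lowest, and lowest in A24, in which all 4 were highest; the part of such cells in the chemokine levels was not tested.

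The 4 genes lie on the plus strand of mouse chromosome 5 (GRCm38) within 146.6 kb that hold 11 annotated genes. Cxcl5 comes first (ENSMUSG00000029371, 90759360 to 90761624), followed by Cxcl3 (ENSMUSG00000029379, 90786103 to 90789600), Cxcl1 (ENSMUSG00000029380, 90891241 to 90893115) and Cxcl2 (ENSMUSG00000058427, 90903871 to 90905938). The coding transcript of each has 4 exons. RefSeq promoter sequences (build GRCm38.p6) were matched for 3 of the 4, Cxcl1, Cxcl2 and Cxcl3. The 100 bases directly before the earlier of the RefSeq and GENCODE start of each gene are printed, plus strand, because the same motif pair stands in all 3 in the same order. Capitals mark GGGAATTTCC, a κB sequence of the kind NF-κB binds, and ATAAAAGG, a TATA-like sequence and the longest stretch that all 3 share downstream of it.
Cxcl1 chr5:90891141-90891240: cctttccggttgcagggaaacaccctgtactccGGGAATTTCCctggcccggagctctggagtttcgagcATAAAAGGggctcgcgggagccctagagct
Cxcl2 chr5:90903771-90903870: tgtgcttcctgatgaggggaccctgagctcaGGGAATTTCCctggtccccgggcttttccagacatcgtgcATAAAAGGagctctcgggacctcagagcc
Cxcl3 chr5:90786001-90786100: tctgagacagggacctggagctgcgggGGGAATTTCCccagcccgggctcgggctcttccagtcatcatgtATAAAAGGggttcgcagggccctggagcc

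GGGAATTTCC began 67 bases before the GENCODE start of Cxcl1, 69 bases before that of Cxcl2 and 75 bases before that of Cxcl3. ATAAAAGG began 30, 29 and 31 bases before those starts, with 27, 30 and 34 bases between the motifs. The printed stretches were 70.4% identical between Cxcl1 and Cxcl2, 68.8% between Cxcl2 and Cxcl3 and 63.4% between Cxcl1 and Cxcl3. Over all 32851 RefSeq promoter windows, each from 250 bases before to 50 bases after a start, GGGAATTTCC was found on either strand in 29 windows (0.0883%) and ATAAAAGG in 577 (1.76%). The wider κB consensus, searched on both strands, was in 2779 windows (8.46%); it matched at 2 overlapping places in each of the 3 chemokine windows. AP-1 (TGANTCA, in 7.81% of windows) and C/EBP (TTGCNNAA, in 10.8%) had no match in the windows of Cxcl1, Cxcl2 or Cxcl3. The windows of the other CXC chemokine genes of the cluster, Cxcl15, Pf4 and Ppbp, held no GGGAATTTCC. These matches describe letters in a window and not binding, and the motifs were picked after the sequences were seen.

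The 3′ untranslated regions of the 4 mRNAs differed in their AU-rich elements. The core pentamer ATTTA occurred 11 times in the 734 bases of Cxcl2, 7 times in the 592 bases of Cxcl1, and 5 times each in the 645 bases of Cxcl3 and the 1111 bases of Cxcl5. That is 15.0, 11.8, 7.75 and 4.50 per kilobase, against a median of 1.20 per kilobase over the 3′ untranslated regions of 20156 mouse genes, of which 0.362%, 0.809%, 2.70% and 10.4% were at least as dense. The longer TTATTTATT, the form best known for rapid decay, occurred 4 times in Cxcl2, 2 times in Cxcl1, once in Cxcl3 and not in Cxcl5; 7.12% of genes held it. For each, 30 bases with the most pentamers are printed with ATTTA in capitals, the first such stretch where several tie. In Cxcl5 no stretch of 30 bases held more than 1, so its pentamers are not clustered on this scale.
Cxcl2: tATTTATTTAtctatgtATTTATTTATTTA
Cxcl1: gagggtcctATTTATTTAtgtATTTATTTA
Cxcl3: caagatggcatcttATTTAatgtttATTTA
Cxcl5: agcttcctgctcatctcacaagtgtATTTA

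Cxcl1, often called KC, was the most abundant of the 4 in every library. It measured 38.5 FPKM in A0, 24.4 in B0 and 2.08 in D0, and 472 FPKM in A24, 212 in D24 and 203 in E24. D0 stood far below the other untreated libraries, by 18.5 times from the highest, while the IL-36β libraries lay within 2.33 times of each other. The lowest IL-36β library was 5.27 times the highest untreated one. As means these are 21.7 ± 18.3 and 296 ± 153 FPKM (SD, n = 3 per group), a ratio of 13.6, and the difference of mean log2(FPKM + 0.5) was 4.33. Cxcl1 ranked 1237th, 2042nd and 9477th among all genes by FPKM in A0, B0 and D0. In the IL-36β libraries it ranked 67th, 170th and 207th, among the most abundant mRNAs of these cells.

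Cxcl2, the mouse macrophage inflammatory protein 2, had the same order of libraries. Its level was 27.6 FPKM in A0, 19.6 in B0 and 1.38 in D0, against 235 FPKM in A24, 97.4 in D24 and 67.2 in E24. The groups did not overlap, but their distance was the smallest of the 4 genes, the lowest IL-36β library being 2.44 times the highest untreated one. The means were 16.2 ± 13.4 and 133 ± 89.2 FPKM (SD, n = 3 per group), a ratio of 8.22, with a log2 difference of 3.51. Within a group the levels spread by 19.9 times among untreated and 3.49 times among IL-36β libraries.

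Cxcl3, a close relative of Cxcl2, was scarce without IL-36β. It was read 17, 21 and 4 times in A0, B0 and D0, or 0.299, 0.296 and 0.0744 FPKM. With IL-36β it was read 290 times in A24 and 70 times in each of D24 and E24, or 5.34, 1.22 and 1.10 FPKM. A24 thus stood at 4.86 times the lowest library of its own group, the widest spread with IL-36β among the 4. The lowest IL-36β library was 3.68 times the highest untreated one, the ratio of the means was 11.4 (0.223 ± 0.129 and 2.55 ± 2.42 FPKM, SD, n = 3 per group), and the log2 difference was 1.82. Cxcl3 and Cxcl2 share sequence: 61 of the 967 stretches of 50 bases in the coding transcript of Cxcl3 (6.31%) are also in that of Cxcl2. How reads that match both genes were counted is not known from the labels, so the low Cxcl3 level is uncertain beside the far more abundant Cxcl2. Cxcl1 and Cxcl5 share no such stretch with the other members.

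Cxcl5, known in mouse as LIX, was the nearest to absent in untreated cells. It was read 7 times in A0, 4 times in B0 and not at all in D0, or 0.231, 0.106 and 0 FPKM. The IL-36β libraries held 217, 109 and 101 reads of Cxcl5, or 7.51 FPKM in A24, 3.56 in D24 and 2.98 in E24. The lowest of them was 12.9 times the highest untreated library, the widest distance between the groups among the 4. The means were 0.112 ± 0.116 and 4.68 ± 2.46 FPKM (SD, n = 3 per group), a ratio of 41.6, and the log2 difference was 3.00. That log2 scale adds 0.5 to each FPKM and so understates the change of Cxcl5 and Cxcl3, whose untreated levels were all below 0.5 FPKM. Both entered the set of tested genes only through their IL-36β libraries.

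**Figure D1:**
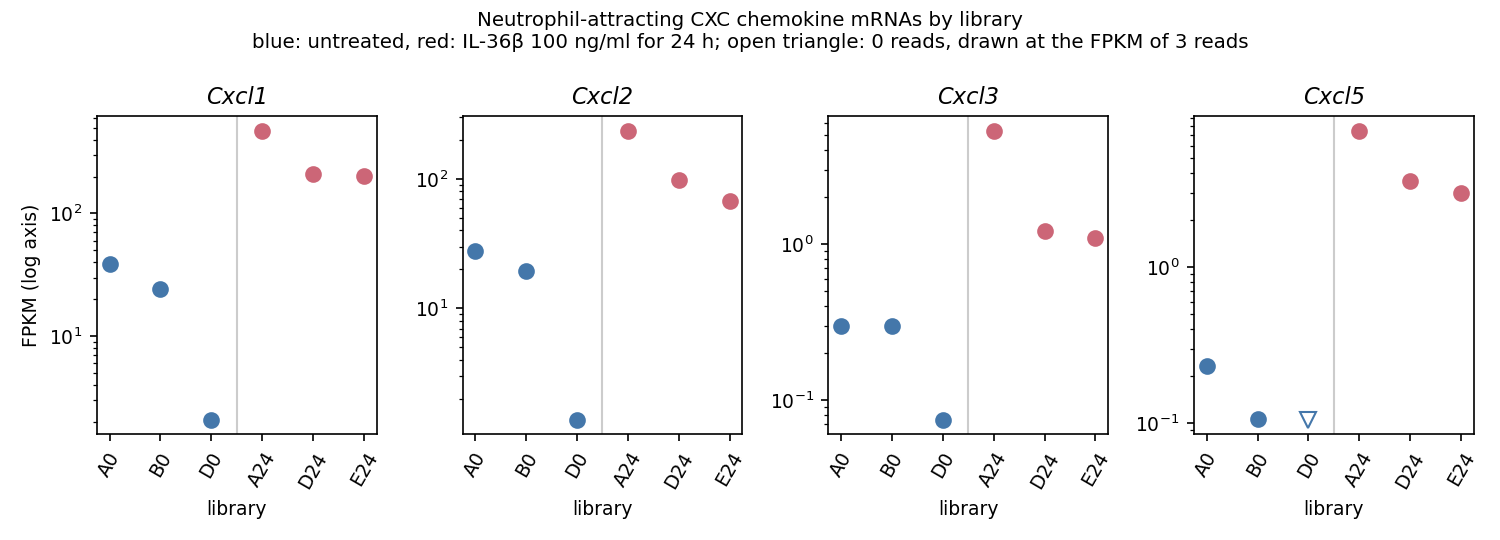
FPKM of each chemokine mRNA on a log axis, one point per library, with untreated libraries in blue and IL-36β libraries in red; the open triangle is Cxcl5 in D0, with 0 reads, drawn at the FPKM of 3 reads. In each panel all 3 red points lie above all 3 blue points, D0 is the lowest (for Cxcl5 by its 0 reads) and A24 the highest.

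Across all genes the same comparison, tested with limma on log2(FPKM + 0.5) at a Benjamini-Hochberg adjusted p under 0.05, called 23 of 12618 tested genes (0.182%), of which 21 were higher (0.166%) and 2 lower (0.0159%). One of the 4 chemokines, Cxcl5, was among them. Groups did not overlap, with IL-36β higher, in 8.95% of tested genes, and in 4 of the 4 chemokines. With the library letters as a term in the model (A and B against D and E), 85 genes were called higher (0.674%), all 4 chemokines among them. Since these genes were picked for this response, nothing is read from those counts.

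The make-up of the 4 mRNAs differed between the groups along with their total. Summed, they came to 66.6, 44.4 and 3.54 FPKM in A0, B0 and D0 and to 720, 314 and 274 FPKM in A24, D24 and E24. Cxcl1 made up 55.0 to 58.8% of the sum in untreated libraries and 65.6 to 74.0% with IL-36β. The share of Cxcl2 went the other way, from 39.1 to 44.1% untreated down to 24.5 to 32.6%. Cxcl3 and Cxcl5 together were a small remainder in every library. The ratio of Cxcl1 to Cxcl2, at 1.39, 1.25 and 1.504 in A0, B0 and D0, was 2.01, 2.17 and 3.02 in A24, D24 and E24. This ratio did not overlap between the groups although the level of each of these mRNAs varied by 18.5 and 19.9 times among untreated libraries; it comes from the contrast by which the genes were chosen, and was not tested.

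The order of the scarcer pair depended on the length used. The deposited FPKM divide by the union of all annotated exons, which includes transcripts with retained introns. That length is 3498 bases for Cxcl3 against 1016 for its coding transcript, and 1863 against 1575 for Cxcl5, so the deposited Cxcl3 level is the more strongly lowered. By deposited length Cxcl5 was below Cxcl3 in all untreated libraries (ratios of 0.773, 0.358 and 0) and above it in A24, D24 and E24 (1.40, 2.92 and 2.71). By coding transcript length the ratio was 0.483, 1.00 and 0.931 in the IL-36β libraries, so that Cxcl5 was not clearly above Cxcl3 in any of them. The Cxcl5 to Cxcl3 ratio was higher in all 3 IL-36β libraries than in all 3 untreated ones. The choice of length multiplies this ratio by the same factor in every library and cannot alter that order. The untreated ratios rest on few reads of Cxcl5 and Cxcl3: 7 and 17 in A0, 4 and 21 in B0, and 0 and 4 in D0. This difference comes from the contrast by which the genes were chosen, and was not tested. For the abundant pair the lengths were 1875 against 953 bases (Cxcl1) and 2068 against 1109 bases (Cxcl2), and Cxcl1 stayed above Cxcl2 on both scales.

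**Figure D2:**
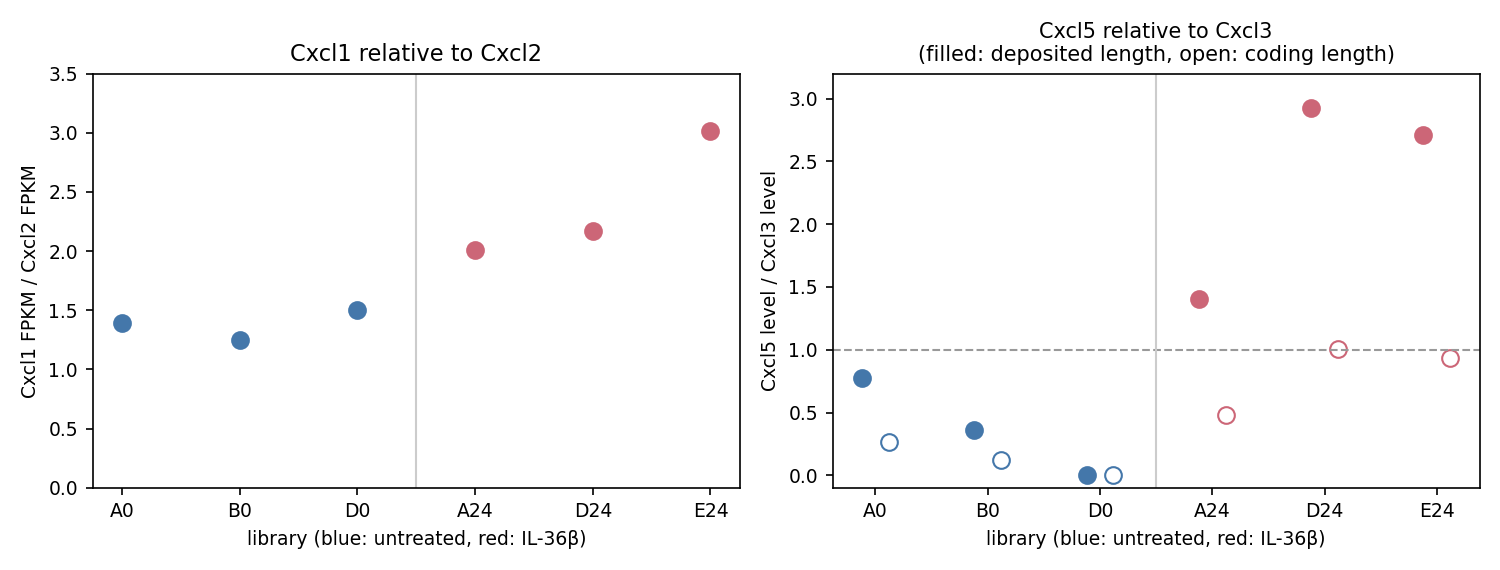
Left, the ratio of Cxcl1 to Cxcl2 FPKM per library; right, the ratio of Cxcl5 to Cxcl3, with filled points by the deposited length and open points by coding transcript length, untreated in blue and IL-36β in red, and a dashed line at a ratio of 1. The Cxcl1 to Cxcl2 ratio lies at 1.25 to 1.504 untreated and 2.01 to 3.02 with IL-36β, and the open points of the right panel do not rise clearly above 1.

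The 4 mRNAs also differed between libraries of the same group, along the letters of the library names. The libraries lettered A and B (A0, B0, A24) held more of each chemokine than those lettered D and E (D0, D24, E24). Among untreated libraries the mean of A0 and B0 was 15.1 times D0 for Cxcl1, 17.0 times for Cxcl2 and 4.00 times for Cxcl3; Cxcl5 had no read in D0. Among IL-36β libraries A24 was 2.28, 2.85, 4.61 and 2.30 times the mean of D24 and E24 for Cxcl1, Cxcl2, Cxcl3 and Cxcl5. The choice of the genes did not use this split, but the split had been noticed in these same data, so its p-values may overstate the evidence. In limma with the group as a term, Cxcl2 was lower in D and E by 6.03-fold (log2 difference -2.59, SE 0.45, 95% confidence interval -3.66 to -1.53, adjusted p = 0.0456). Of all tested genes 220 were called in this contrast (1.74%), 156 of them lower in D and E (1.24%). The other chemokines did not pass, with log2 differences of -2.39 for Cxcl1 (limma adjusted p = 0.0768), -1.15 for Cxcl3 (adjusted p = 0.132) and -0.75 for Cxcl5 (adjusted p = 0.142). Leaving out 1 library moved the Cxcl2 log2 difference between -1.53 (without D0) and -3.66 (without A24). The Cxcl2 call was lost without A0 (limma adjusted p = 0.111), B0 (0.117), D0 (0.194), D24 (0.0578) or E24 (0.0526), and with no filter on low values (0.178), with quantile normalization (0.0532) and with 0.1 in place of 0.5 added to each FPKM (0.0618). In the tests on reads the difference also passed for Cxcl1 (edgeR adjusted p = 0.0263, DESeq2 adjusted p = 0.0128). Cxcl3 and Cxcl5 entered these tests only through their IL-36β libraries, so their outcomes in this contrast are not read as support. What the letters stand for is not given in the labels.

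Some markers of other cell types moved with the letters too, while others of the same lists did not. The neuron list summed to 6.80, 6.91 and 6.90 FPKM in A0, B0 and A24 and to 13.7, 15.6 and 24.3 FPKM in D0, D24 and E24. Most of it was Tubb3, the tubulin gene and the only tested gene of the list, which was called higher in D and E (limma). Map2 of the same list went the other way. It measured 1.20, 1.69 and 0.333 FPKM in A0, B0 and A24 and 0.150, 0.037 and 0.043 FPKM in D0, D24 and E24. Of the defining neuron markers Snap25 was at 0 in all 6 libraries, and 3 of the 5 markers stayed below 0.5 FPKM. The fibroblast list summed to 0.724, 0.951 and 0.929 FPKM in A0, B0 and A24 and to 1.54, 1.92 and 3.56 FPKM in D0, D24 and E24. Its member Pdgfra was not higher there, at 0.184, 0.251 and 0.154 FPKM in A0, B0 and A24 and 0.182, 0.164 and 0.110 FPKM in D0, D24 and E24. Of the 6 tested mural markers 1, the smooth muscle gene Tagln, was called higher in D and E, and of the 12 endothelial markers 1, the glucose transporter gene Slc2a1, was called lower. The mural marker Myh11 was not higher in D and E, at 6.54, 11.6 and 4.60 FPKM in A0, B0 and A24 and 6.02, 3.90 and 2.05 FPKM in D0, D24 and E24. The part of any of these in the chemokine levels was not tested.

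Because D0 was so low, the ratio of IL-36β to untreated depended on the letters for the abundant pair. Within A and B the IL-36β library was 15.0 times the untreated mean for Cxcl1 and 9.95 times for Cxcl2. Within D and E the ratios were 99.6 and 59.5. For Cxcl3 the ratios were 17.9 and 15.6, and for Cxcl5 44.5 and at least 31.2, the last against a floor of 3 reads in D0. The difference of the IL-36β effect between the letters, an interaction chosen after the data were seen, was 2.41 on the log2 scale for Cxcl1 (95% confidence interval 1.48 to 3.33, limma adjusted p = 0.822), 2.13 for Cxcl2 (1.12 to 3.13, adjusted p = 1.00), -1.34 for Cxcl3 (-2.15 to -0.54, adjusted p = 1.00) and -0.68 for Cxcl5 (-1.53 to 0.17, adjusted p = 1.00). The intervals of Cxcl1, Cxcl2 and Cxcl3 leave out 0, with Cxcl3 in the opposite direction, but none passed the adjustment over all genes, and no gene of 12618 was called (0%; 347 genes, 2.75%, at an unadjusted p under 0.05; edgeR adjusted p = 0.363 for Cxcl2). D0 is the only untreated library of its letters and A24 the only IL-36β library of its own, so each effect compared rests on 1 library in one of its groups. Cxcl3 and Cxcl5 entered the tested genes only through their IL-36β libraries. The members were also chosen for their response to IL-36β, so these intervals are a description. The opposite sign of Cxcl3 is not read as a weaker effect in D and E. Its untreated levels all lay below the added 0.5 FPKM. The Cxcl3 value was -0.92 with 0.1 added and -0.25 in edgeR, and its ratios of 17.9 and 15.6 were close.

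The other chemokine genes of the cluster gave few reads or none. Cxcl15, which encodes a lung-enriched chemokine, had no read in any of the 6 libraries. Pf4 and Ppbp, the platelet chemokine genes that lie between Cxcl5 and Cxcl3, were read 9 and 4 times in all untreated libraries together and 10 and 3 times with IL-36β. None of these 3 reached the level at which genes were tested. From 250 kb before Cxcl5 to 250 kb after Cxcl2 there were 20 other genes, 10 of them at 0 in all 6 libraries and 4 tested, of which none was called (limma). Ereg, which encodes the growth factor epiregulin, went from 21.5 ± 3.59 to 15.5 ± 5.53 FPKM (SD, n = 3 per group; limma adjusted p = 0.539). Mthfd2l, a mitochondrial folate enzyme gene, measured 1.06 and 1.08 FPKM (adjusted p = 0.967, limma), and the predicted gene Gm19610 measured 3.02 and 2.07 FPKM (limma adjusted p = 0.719). Rassf6 measured 1.07, 2.82 and 9.65 FPKM in A0, B0 and D0 and 0.908, 4.57 and 2.30 FPKM in A24, D24 and E24 (limma adjusted p = 0.832). It was highest in D0 and lowest in A24, the reverse of the chemokines. Gm22816, the ribosomal RNA gene annotated next after Cxcl1, had 8 reads, all in IL-36β libraries.

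Among all 11358 tested genes with a mean of at least 1 FPKM in a group, the closest to each chemokine was sought by profile. The measure was the root mean square difference of log2(FPKM + 0.5) over the 6 libraries, each gene centred on its own mean; it is a description and says nothing of shared control. Closest to Cxcl1 was Lcn2, which encodes the iron-binding lipocalin of neutrophil granules and inflamed epithelium, at a difference of 0.33, nearer than Cxcl2 at 0.45 and far below the median gene at 2.52. Lcn2 went from 24.8 to 410 FPKM. Next were Csf3, the gene of the neutrophil growth factor G-CSF (0.99), and Acod1, the gene of the itaconate-producing enzyme (1.16). Cxcl2 was also followed most closely by Lcn2 (0.55), then by Acod1 (0.87) and Ccl7 (0.91), a monocyte chemokine gene, with a median gene at 2.21.

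The low pair had other companions. Cxcl3 ran closest to Ccl20 (0.18), the gene of a chemokine for CCR6-bearing lymphocytes, then Zbp1 (0.34), a sensor of Z-form nucleic acid, and Ikbke (0.38), a kinase of the IκB kinase family; the median gene was at 1.12. Cxcl5 ran closest to Il6 (0.42), the inflammatory cytokine gene, Steap4 (0.44), a metalloreductase gene, and Snord58b (0.49), a small nucleolar RNA with only 1 read untreated and 11 with IL-36β; the median gene was at 1.56. The small scale of the low genes is in part set by the added 0.5, which keeps low values close together. Of the 10 companions of the 4 chemokines, Csf3 and Il6 passed the test of IL-36β against untreated, and the other 8 did not, Lcn2 among them (limma adjusted p = 0.106). With the letters as a term those 8 passed too, with limma adjusted p from 0.0026 (Lcn2) to 0.0403 (Snord58b). Since they were picked by likeness to genes chosen for this response, those calls are a description. Folds here and below are fitted on log2(FPKM + 0.5), which understates them for genes with low untreated levels. Il6 rose 7.83-fold on that scale, with means of 0.292 FPKM untreated and 5.67 FPKM with IL-36β (limma adjusted p = 0.00633). That call was lost with no filter on low values (0.105). Csf3 rose 17.4-fold (1.96, 1.05 and 0.736 FPKM in A0, B0 and D0; 44.9, 26.8 and 19.7 FPKM in A24, D24 and E24; limma adjusted p = 0.0179). The Csf3 call was lost without B0 (limma adjusted p = 0.0529), without D24 (0.0838) and with no filter on low values (0.111).

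**Figure D3:**
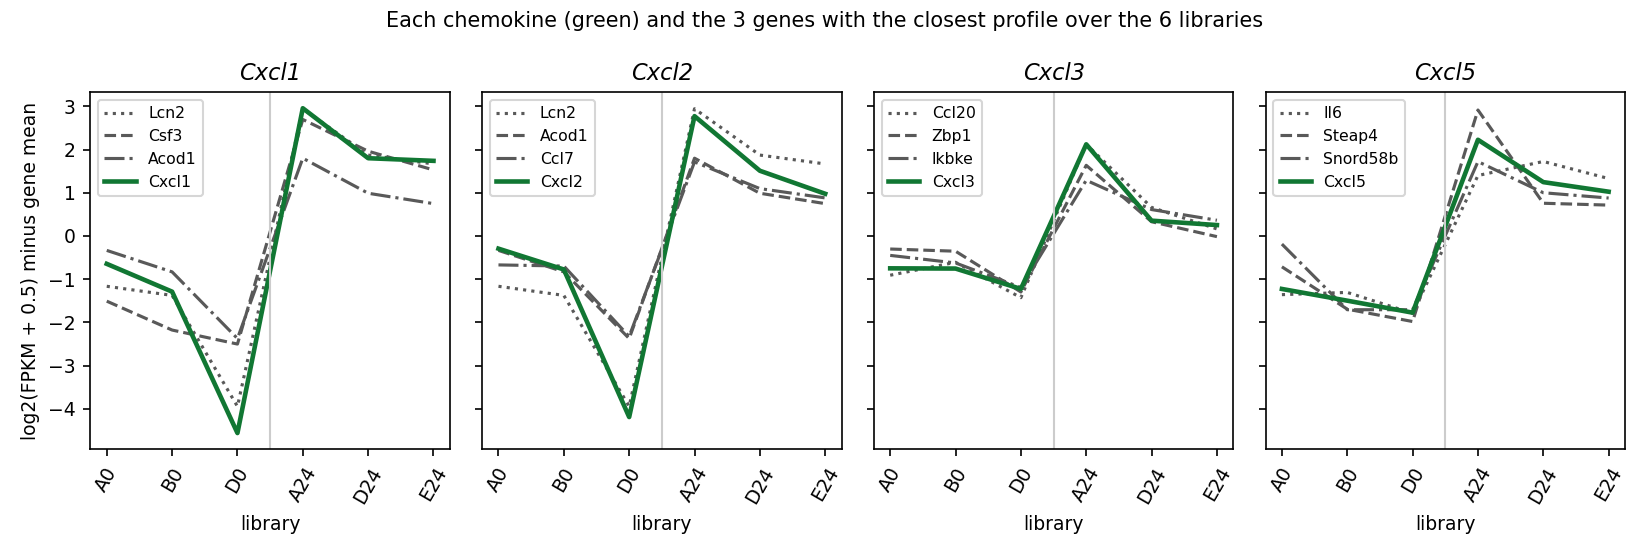
Centred log2(FPKM + 0.5) over the 6 libraries for each chemokine (green) and the 3 genes with the most similar profile (dashed and dotted); the lines join libraries only to guide the eye. Cxcl1 and Cxcl2 drop far below their mean in D0, as does Lcn2, while Cxcl3 and Cxcl5 run in a narrower range.

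The receptors of the chemokines were next to absent. Cxcr2, the shared receptor, had 1 read in all untreated libraries together and none with IL-36β, and Cxcr1 had none and 1. Ackr1, the atypical receptor by which venular endothelium carries chemokines across the cell, was read 20 times untreated and 64 times with IL-36β, with means of 0.272 ± 0.084 and 0.883 ± 0.486 FPKM (SD, n = 3 per group). Its groups did not overlap, but it was too low to be tested. Ccrl2, which presents chemerin on endothelium and can pair with CXCR2, measured 3.06 ± 0.885 and 4.50 ± 0.240 FPKM (1.43-fold, 95% confidence interval 1.07 to 1.92, limma adjusted p = 0.399). Il1rl2, the receptor gene for IL-36β itself, was present at 0.929 and 0.691 FPKM (limma adjusted p = 0.676).

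Genes of proteoglycans, and of the enzymes that make or trim the heparan sulfate on which chemokines are held, gave 20 tested of 22. None passed over all genes (limma), while 5 were under an unadjusted p of 0.05 and DESeq2 called 2. Of all tested genes 2.06% were called by DESeq2, and 10.4% were under that unadjusted p in limma. The median log2 difference of the list was -0.02, against 0.00 over all genes tested. The most abundant were Sdc3, a syndecan gene, at 94.7 and 95.7 FPKM, and Srgn, the serglycin gene, at 84.6 and 78.8 FPKM. Sdc4, the gene of the widely expressed syndecan-4, measured 25.9, 27.4 and 23.7 FPKM in A0, B0 and D0 and 40.5, 42.0 and 39.7 FPKM in A24, D24 and E24. It just missed the threshold (1.58-fold, limma adjusted p = 0.0569) and passed with the letters as a term (adjusted p = 0.0308), as did Ext1, a heparan sulfate polymerase gene, at 1.46-fold (limma adjusted p = 0.117 and 0.0498). Hs6st2, Hs2st1 and Glce, also under an unadjusted p of 0.05, were lower with IL-36β, at 0.457-, 0.826- and 0.846-fold (limma adjusted p = 0.390, 0.346 and 0.482). The rule for named genes does not cover Sdc4, Ext1, Hs6st2, Hs2st1 and Glce, which were picked with their values in view.

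Regulators of the decay of AU-rich mRNAs gave no call among 14 tested (limma). An unadjusted p under 0.05 was found for 3, against 10.4% of all tested genes, and DESeq2 called 1, against 2.06%. The median log2 difference of the list was 0.09, against 0.00 over all genes tested. Zfp36, the gene of tristetraprolin, which binds the ATTTA element, measured 10.9 ± 1.40 and 10.5 ± 1.11 FPKM (limma adjusted p = 0.914). Zc3h12a, which encodes the endonuclease regnase-1, went from 1.72 ± 0.809 to 6.54 ± 1.75 FPKM, with no overlap between the groups. That is 3.27-fold, with 95% limits of 2.04 and 5.23 (limma adjusted p = 0.110; 0.00593 with the letters as a term and 0.0357 with the replicate number as a block). Dusp1 and Mapkapk2 were the most abundant of this list. Their products act in opposite directions on the p38 kinase pathway, which stabilises such mRNAs. Dusp1 stood at 187 and 217 FPKM (limma adjusted p = 0.631) and Mapkapk2 at 72.2 and 87.8 FPKM (limma adjusted p = 0.433).

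Transcription factors known at chemokine promoters gave no call among 11 tested (limma), although 9 had a fitted difference above 0, against 50.5% of all tested genes. Their median log2 difference was 0.44, against 0.00 over all genes tested. In limma 6 were under an unadjusted p of 0.05, against 10.4% of all tested genes, and DESeq2 called 5, against 2.06%. Among those 6 was Fos, which was lower, at 15.9 FPKM untreated and 9.78 FPKM with IL-36β (limma adjusted p = 0.399). Fos was picked with its values in view. Nfkbiz, which encodes the NF-κB cofactor IκBζ, was 4.59, 4.18 and 1.56 FPKM in A0, B0 and D0 and 15.8, 10.8 and 10.9 FPKM in A24, D24 and E24. Its 3.51-fold difference missed the threshold in the pooled model (limma adjusted p = 0.131) and passed with the letters as a term (0.00593), and, as for the 4 chemokines, D0 was the lowest library. Rela, the NF-κB subunit gene, was at 99.6 and 113 FPKM (limma adjusted p = 0.582) and Jun, an AP-1 subunit gene, at 68.4 and 72.5 FPKM (limma adjusted p = 0.822).

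Of the 29 genes whose promoter window holds GGGAATTTCC, 12 were tested, Cxcl1, Cxcl2 and Cxcl3 among them. Of the other 9, 6 had a difference above 0, against 50.5% of all tested genes, and 1 was called (limma), against 0.182%. Their median log2 difference was 0.18, against 0.00 over all genes tested. The called gene was Nfkbia, which encodes the NF-κB inhibitor IκBα. It measured 91.4, 86.6 and 92.2 FPKM in A0, B0 and D0 and 165, 162 and 187 FPKM in A24, D24 and E24 (1.89-fold, limma adjusted p = 0.0275). Its untreated libraries were close to each other, D0 included, unlike those of the chemokines. The Nfkbia call was lost without any 1 of the 6 libraries (limma adjusted p = 0.0665 to 0.178), with no filter on low values (0.114) and with the replicate number as a block (0.069). GGGAATTTCC also stands in windows of genes with little difference, such as Asb8, at a log2 difference of 0.01. Both Nfkbia and Asb8 were picked with their values in view.

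**Figure D4:**
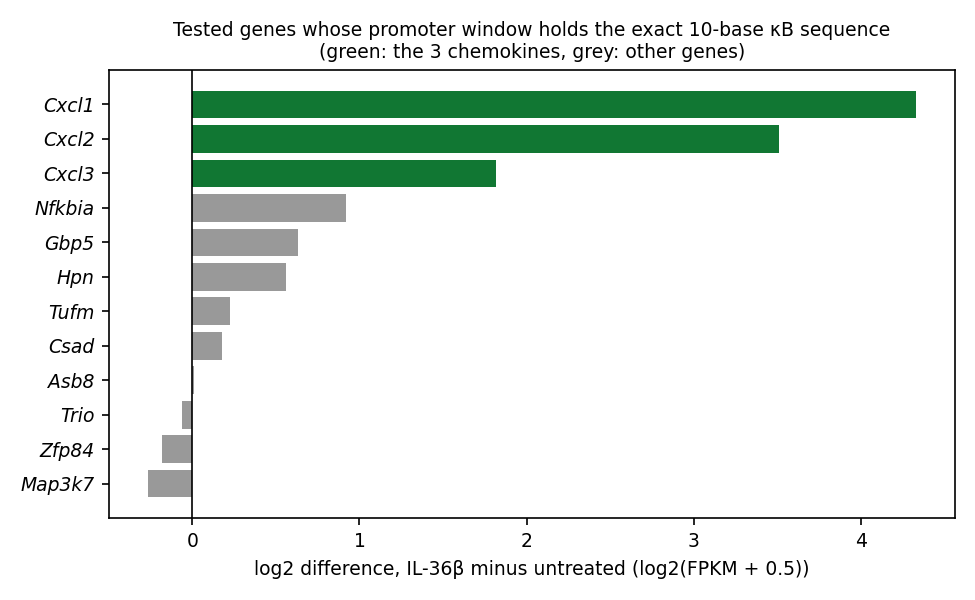
Fitted difference of log2(FPKM + 0.5), IL-36β minus untreated, for the 12 tested genes whose promoter window holds GGGAATTTCC on either strand; Cxcl1, Cxcl2 and Cxcl3 are green and the other genes grey. The chemokines stand at 4.33, 3.51 and 1.82, Nfkbia follows at 0.92, and the other 8 range from -0.27 (Map3k7) to 0.63 (Gbp5).

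Adhesion and junction genes by which neutrophils bind and cross endothelium gave 2 calls, both higher, among 11 tested of 13 (limma). Of all tested genes 0.166% were called higher. The median log2 difference of the list was 0.15, against 0.00 over all genes tested. Selp, the P-selectin gene, was too low to be tested, with 4 reads in all untreated libraries together and 187 with IL-36β. It measured 0.014, 0.011 and 0.029 FPKM in A0, B0 and D0 and 0.146, 1.05 and 1.26 FPKM in A24, D24 and E24. It was picked with its values in view. Icam1, the ligand of the neutrophil β2 integrins, rose with less spread within its groups than the chemokines: 63.7, 63.8 and 42.6 FPKM in A0, B0 and D0 against 173, 166 and 151 FPKM in A24, D24 and E24 (2.91-fold, limma adjusted p = 0.0284). Sele, the E-selectin gene on which neutrophils roll, rose 3.11-fold, from 1.06 ± 0.270 (SD, n = 3) to 4.36 ± 0.873 FPKM (limma adjusted p = 0.0322). Both calls were lost with no filter on low values (limma adjusted p = 0.121 for Icam1 and 0.143 for Sele). The Icam1 call was also lost without any 1 library but D0, and the Sele call without any 1 of the 6. Cdh5 and Pecam1, the junction genes most abundant in this list, stood at 956 and 974 FPKM and at 362 and 400 FPKM (limma adjusted p = 0.971 and 0.779).

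**Figure D5:**
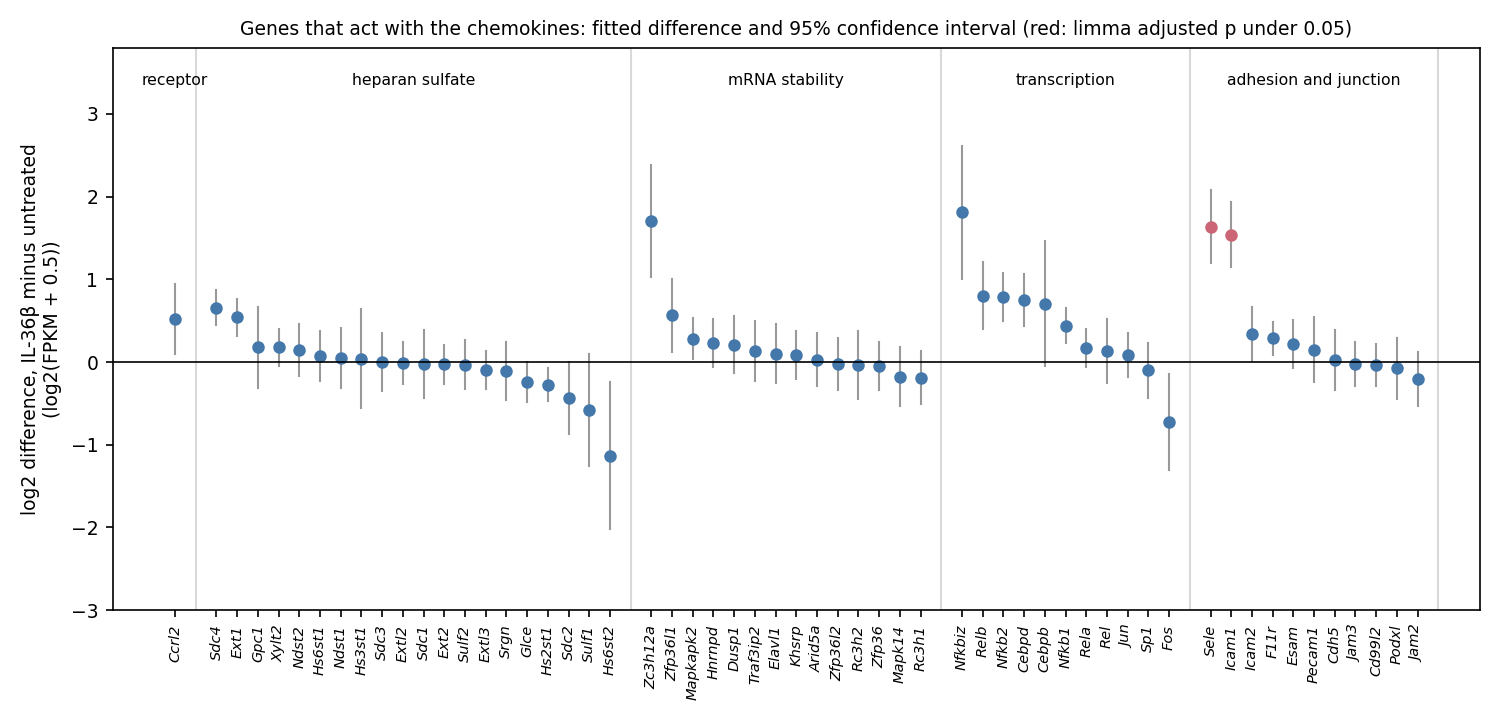
Fitted difference of log2(FPKM + 0.5), IL-36β minus untreated, with its 95% confidence interval, for the tested genes of 5 lists of genes that act with the chemokines; red marks a limma adjusted p under 0.05. Sele and Icam1 are the 2 red points, and Zc3h12a and Nfkbiz have differences of like size with wider intervals.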

How the data were processed

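Stranded mRNA libraries of mouse BMVECs, 3 untreated and 3 with IL-36β, were read on a NextSeq instrument (per the labels' protocols). Titles gave the groups, and samples were matched to table columns by library name; 8 per-library columns of 4 libraries without a sample label were not used. Per the submitters' processing notes, the tools were fastp, HISAT2 2.05, StringTie 1.3.3b56, featureCounts 1.50-p3 and DESeq2 1.38.3, with the build GRCm38 and no roles stated; the handling of strand and of multi-mapped reads was not given in the sources used here. FPKM values were made by the authors and deposited for 54532 genes. For 660 genes the authors also deposited raw counts and a normalized signal (counts divided by a size factor, per the file headers and values). FPKM times gene length gave whole reads within 0.01 for 100% of values and equalled the deposited counts in 660 of 660 genes; at 1 kb, 1 FPKM was 15.4 to 20.3 reads. A table of enrichment terms was not used.

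Two-sided limma 3.58.1 tests (R 4.3.3, trended prior) were run on log2(FPKM + 0.5) of the 12618 genes that reached 0.5 FPKM in 3 or more of the 6 libraries, with Benjamini-Hochberg adjustment over all of them. edgeR 4.0.16 and DESeq2 1.42.0 were run on the recovered reads as alternatives. Other alternatives were pseudocounts, filters, scalings, blocks by title number or library letter, the letters as a term, and leaving out each library; the interaction of treatment and letters was added after the data were seen. The limma fit was tested on simulated reads. The members and lists were chosen with earlier results of these data known. Named genes were the members, 12 fixed genes, the called and the 2 most abundant genes of each list, expressed neighbours within 250 kb, and the 3 genes closest in profile to each member. The main test paired no libraries. Deviations from group means correlated at 0.21, -0.14 and 0.21 for title numbers 1 to 3. Libraries of the same letter correlated at 0.21 (A) and 0.28 (D), and B0 and E24 have no partner by letter. The A pair is also the pair of number 1. The highest correlation, 0.39, was between B0 and A24, which share neither number nor letter, so these values do not settle a pairing. The letters were used as a block and as a term in alternatives. No replicate pair agreed within sampling noise, with a chi-square of 12.1 to 44.4 per degree of freedom. Promoters came from RefSeq (GRCm38.p6), transcripts from GENCODE M21.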

Additional observations from a re-analysis of the deposited data

How the results depend on the processing

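The members' differences kept their direction under every alternative run, while their size depended on the added 0.5 for the low pair. Cxcl3 went from a log2 difference of 1.82 to 2.76 with a pseudocount of 0.1, 3.47 in edgeR and 3.501 in DESeq2. Cxcl5 went from 3.00 to 4.54 with a pseudocount of 0.1, 2.27 with 1, 5.31 in edgeR and 5.36 in DESeq2. Leaving out 1 library gave 3.13 to 5.09 for Cxcl1, 2.29 to 4.24 for Cxcl2, 1.21 to 2.15 for Cxcl3 and 2.63 to 3.24 for Cxcl5.

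The 23 calls of IL-36β against untreated became 0 with no filter on low values (1751 at an unadjusted p under 0.05), 37 in edgeR, 260 in DESeq2, 78 with a block by library letter, 102 with the letters as a term and 2 to 8 when 1 library was left out. With the replicate block (the title number), which pairs libraries by number only, there were 13. The 220 calls between the letters became 41 with no filter, 465 in edgeR, 688 in DESeq2 and 17 to 402 when 1 library was left out. Calls among heparan sulfate genes were 1 in edgeR, 2 in DESeq2 and 2 with the letters as a term. Among mRNA decay regulators 1 was called in DESeq2, with the replicate block, with the letter block and with the letters as a term. Transcription factors gave 1 in edgeR, 5 in DESeq2, 1 with the letter block and 2 with the letters as a term. Adhesion genes gave 0 with no filter and 0 to 1 with 1 library left out.

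Differences near 0 changed sign: Zfp36 (0.13 with the letter block, 0.013 with the letters as a term, -0.12 to 0.052 with 1 library left out), Mthfd2l (-0.030 with FPKM scaled to the same sum, -0.068 to 0.15), Sdc3 (0.0070 in edgeR, 0.0044 in DESeq2, 0.0081 with the letters as a term, -0.15 to 0.12), Srgn (0.0085 with the letter block, -0.19 to 0.031), Jun (-0.0035 with the same sum, -0.020 with the letter block, -0.011 to 0.14) and Cdh5 (-0.087 with quantile normalization, -0.063 with the same sum, -0.13 with the letter block, -0.087 to 0.10). Rassf6, at -0.47 in the main fit, also changed sign, to 0.25 without D0 and 0.005 without A24. With 1 library left out it ranged from -1.10 to 0.25. The interaction of treatment and letters for Cxcl5 was -0.68, and 0.21 with a pseudocount of 0.1 and 4.19 in edgeR; D0 had no read of Cxcl5. The causes of these changes were not tested. With 3 libraries a group and 4 to 21 untreated reads a library for Cxcl3, and 0 to 7 for Cxcl5, depth limits their fold. The interaction was not run in DESeq2 or with a library left out.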
